A study of Mus musculus with 10 samples.

Results

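Mouse embryonic stem cells (mESCs) that lack either scaffold protein of the mitotic deacetylase complex (MiDAC) were sequenced as 4 knockout (KO) clones, and the clones were compared across the knockouts: D1E6 (Dnttip1 KO) and E2G7 (Elmsan1 KO) on one side, D2A7 (Dnttip1 KO) and E2E8 (Elmsan1 KO) on the other. The comparison takes 8 of the 10 libraries of the series, 4 against 4, with the knocked-out gene as a covariate, so that a gene counted only where it differed in the same direction between the 2 clones of both knockouts. The sides were chosen by the measured expression levels of these same libraries, so differences between them are a description: the limma p behind a call serves only as a threshold. Of 17601 genes tested, 360 differed in the same direction within both knockouts. The data did not show 1 state that the whole transcriptome shared: D1E6 and E2G7 lay close to each other, whereas D2A7 and E2E8 departed from them nearly as often in opposite directions (308 genes) as in the same one.

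All 5 lines are male C57/BL6 Bruce-4 mESCs, and each was sequenced as 2 libraries of stranded total RNA. The study calls the libraries of a line biological replicates, and whether they came from separate cultures is not given in the sources used here. Each KO line grew from 1 sorted cell after transient transfection with Cas9 and a guide RNA, so that a knockout is represented by 2 clones and a side of the comparison by 2 clones. Cells were edited in feeder-free KnockOut DMEM medium and later moved to 2iL, a defined naive medium with the GSK3β inhibitor CHIR 99021, the MEK inhibitor PD 0325901 and leukemia inhibitory factor (LIF), which WT cells shared. The labels name several sequencer models, with no record of which library ran on which. The titles and the design text number the Dnttip1 KO clones differently, so clones are called by their codes.

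MiDAC joins the histone deacetylase HDAC1 or HDAC2 to the scaffold proteins DNTTIP1 and ELMSAN1. Fibroblast growth factor (FGF) signaling acts through MEK and ERK in mESCs and moves them toward differentiation, and a MEK inhibitor, as in 2iL, holds cells in the naive state; Sprouty and DUSP proteins are induced by ERK and feed back on it, and ETV4 and ETV5 are ETS family transcription factors induced by FGF signaling. Lysosomes break down proteins, lipids and sugars taken up or recycled by the cell.

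Both clones of a knockout were made with the same guide RNA, so the clones on the 2 sides do not differ in the target sequence. The guides are shown with the 20 target bases in lower case and the adjacent PAM, the motif that Cas9 needs, in capitals.
Dnttip1 guide: acatcggcaggtgcagcgaaGGG
Elmsan1 guide: gctctcttggcggctaaggcAGG
In NCBIM37 the Dnttip1 target lies on the + strand at chr2:164572230-164572249 within a coding exon (164572207 to 164572277). The Elmsan1 target lies on the + strand at chr12:85512612-85512631 within a coding exon (85512410 to 85512709) of a gene read from the − strand, which the annotation lists as C130039O16Rik. Each has 1 match followed by its PAM in the build. The indels of the single clones were not analysed here.

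RNA levels are given as FPKM, fragment counts scaled to exon length and library size, after division by 1 factor per library. The values rested on 48.3e6 to 86.5e6 fragments per KO library. The RNA of the targeted genes matched the labels in part. Dnttip1 (ENSMUSG00000017299) was measured at 2.58 and 2.6 FPKM in D1E6, 7.64 and 7.77 in E2G7, 4.57 and 4.55 in D2A7 and 6.43 and 6.74 in E2E8, against 8.45 and 8.35 in WT, and was thus lowest in D1E6. Elmsan1 (ENSMUSG00000042507) was at 8.61 and 8.44 FPKM in D1E6, 4.62 and 4.75 in E2G7, 7.78 and 8.67 in D2A7 and 4.89 and 5.13 in E2E8, against 5.73 and 5.34 in WT; a transcript with an indel can still be counted, so these levels do not measure the loss of protein. Across the knockouts, both genes differed (limma, Dnttip1: log2 difference Dnttip1 KO minus Elmsan1 KO -1.03, SE 0.029, adjusted p = 5.15e-06; Elmsan1: log2 difference Dnttip1 KO minus Elmsan1 KO 0.78, SE 0.041, adjusted p = 3.26e-05). Markers of naive mESCs were expressed in every library, and in short sets of defining markers no gene of primitive endoderm, mesoderm, trophoblast, neural, fibroblast, erythroid or 2-cell-like cells reached 1 FPKM in a KO library. Longer lists held genes that did, such as Pramel6, Pramel7, Krt7 and Krt8. The summed fibroblast markers, for example, ranged from 0.212 to 0.263 FPKM in D1E6 and E2G7 and from 0.169 to 0.587 FPKM in D2A7 and E2E8.

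Some chromosomes set single clones apart. The median log2 difference over genes of at least 1 FPKM on chromosome 6 was 0.49 between D1E6 and D2A7 and -0.095 between E2G7 and E2E8, since these genes were at the WT level in D2A7 (median -0.078) and above it in D1E6 (0.43), E2E8 (0.39) and E2G7 (0.29). Chromosome 8 was above WT in all 4 clones (medians of 0.35 to 0.37), with medians of -0.009 and -0.017 between the clones of the Dnttip1 KO and of the Elmsan1 KO. In E2E8 the Y-linked genes Uty and Kdm5d were listed at 0 in both libraries and Ddx3y and Eif2s3y in 1, with at most 0.00315 FPKM in the other, and the median of 4 Y-linked genes differed by 4.94 between E2G7 and E2E8 and by -0.77 between D1E6 and D2A7. Without the genes of chromosomes 6 and Y, 351 genes were called in the same direction, 51 higher in D1E6 and E2G7 and 300 higher in D2A7 and E2E8. Whether a change in chromosome copy number lay behind these values was not tested.

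To place the 4 clones, the lines were first compared pair by pair over the 12219 genes that averaged 1 FPKM or more. Between D1E6 and E2G7, clones of different knockouts, 133 genes (1.09%) were at least 1.5-fold apart, and the log2 differences had an SD of 0.16. The 2 clones of each knockout were much farther apart, with 1395 genes (11.4%) between D2A7 and D1E6 and 1336 (10.9%) between E2E8 and E2G7. D2A7 and E2E8, which form the other side, were the most distant of all pairs, with 2195 genes (18%) and an SD of 0.57. They were also farther from WT (13.8% and 14.3% of genes) than D1E6 (10.1%) and E2G7 (8.84%) were. Libraries of the same clone differed by a median SD of 0.034 to 0.044 on the log2 scale.

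**Figure D1:**
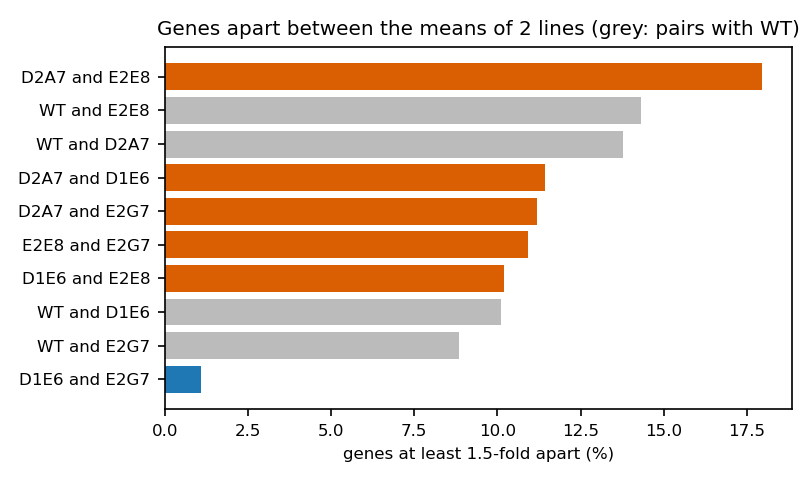
Share of the 12219 genes that averaged 1 FPKM or more whose line means were at least 1.5-fold apart (x axis, %), for each pair of the 5 lines (y axis); blue is D1E6 with E2G7, orange the other pairs of KO clones, grey the pairs with WT. D1E6 and E2G7 stand at 1.09%, and every other pair lies between 8.84% and 18%.

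The genes that did separate D1E6 from E2G7 included both targets. Dnttip1 was the gene most reduced in D1E6 relative to E2G7 (log2 difference -1.54). Of the 133 genes, 99 were higher in D1E6 and 34 higher in E2G7, and 10 were called in both clone pairs with a shared direction. Among all 12219 genes that averaged 1 FPKM or more, 192 were called in this way. Many of the 133 were entries for short RNAs, such as the microRNA Mir669p-2 and the Cajal body RNA SCARNA11. An X-linked gene that differed in E2G7 alone was Cask, a scaffold kinase of synapses, at 1.79 and 1.7 FPKM in E2G7 and 4.83 and 5.07 in D1E6, with 5.08 and 4.98 in WT.

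A gene was called in a clone pair where it differed by at least 1.5-fold with an unadjusted p under 0.01 in limma, the rule of the study. In the Dnttip1 KO pair, 686 genes (3.9% of those tested) were higher in D1E6 and 1725 (9.8%) higher in D2A7. In the Elmsan1 KO pair, 556 (3.16%) were higher in E2G7 and 1733 (9.85%) higher in E2E8. The pairs share no library. Called in both were 668 genes, of which 55 (0.312% of genes tested) were higher in D1E6 and E2G7, 305 (1.73%) were higher in D2A7 and E2E8, and 308 (1.75%) went in opposite directions. The genes called in the same direction thus made up 53.9% of those called in both. The 55 genes were 8.02% of the genes higher in D1E6 and 9.89% of those higher in E2G7, and the 305 genes were 17.7% of those higher in D2A7 and 17.6% of those higher in E2E8. Across all genes tested, the clone differences of the 2 knockouts had a Pearson r of -0.063 and a Spearman rho of 0.0048, and over the 2181 genes called in either pair with a mean of at least 1 FPKM r was -0.15; genes are not independent replicates, and both numbers only describe the plot.

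**Figure D2:**
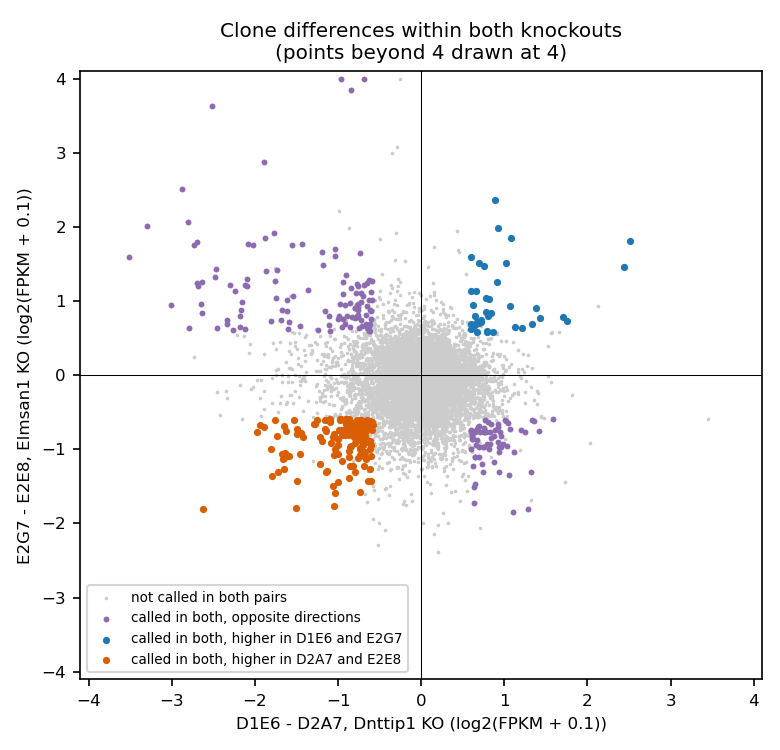
Log2 difference between D1E6 and D2A7 (x axis) and between E2G7 and E2E8 (y axis) of the 12219 genes that averaged 1 FPKM or more, each point 1 gene. Genes called in both pairs fill all 4 corners: 40 are higher in D1E6 and E2G7, 152 are higher in D2A7 and E2E8, and 187 go in opposite directions.

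Of the 55 genes, all 4 libraries of D1E6 and E2G7 lay above all 4 of D2A7 and E2E8 for 52, and for 301 of the 305 they lay below; among all genes tested, 9.54% were separated in the first way and 14% in the second, and the calls fixed most of this separation. Median log2 differences were 0.80 and 0.91 (Dnttip1 KO pair and Elmsan1 KO pair) for the 55 genes and -0.90 and -0.83 for the 305, against -0.038 and -0.046 over all genes tested. Just inside the threshold lay Hsh2d (-0.98 and -0.59) and 0610011F06Rik (-0.59 and -0.68), and just outside it lay Jdp2 (-0.58 and -0.87) and Ovol2 (0.58 and 0.63). The excess of genes higher in D2A7 and E2E8 depended on the scaling: with quantile normalization, 114 were higher in D1E6 and E2G7 and 123 higher in D2A7 and E2E8, 48.1% against 15.3% on the first side.

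Among the genes higher in D1E6 and E2G7, the ERK targets Spry4 and Etv4 led by the smaller of the 2 clone differences. Of 18 ERK response genes tested, 4 were called in both pairs in this direction (Spry4, Etv4, Dusp6 and Myc; 0.312% of all genes were), 0 in the other direction and 1 in opposite directions, and the median log2 difference averaged over both pairs was 0.18 against -0.05 over all genes. Spry4 (ENSMUSG00000024427, chromosome 18 from 38745922 to 38760922 in NCBIM37), a feedback inhibitor of receptor tyrosine kinase signaling, was measured at 4.06 and 4.12 FPKM in D1E6, 1.86 and 1.97 in E2G7, 0.635 and 0.638 in D2A7 and 0.501 and 0.454 in E2E8. D2A7 and E2E8 lay near the WT libraries (0.443 and 0.393), and the 2 sides did not overlap. The log2 difference was 2.51 (SE 0.076) in the Dnttip1 KO pair and 1.81 (SE 0.076) in the Elmsan1 KO pair. Etv4 (ENSMUSG00000017724, chromosome 11 from 101631056 to 101646685), the ETS factor, was at 4.27 and 4.75 FPKM in D1E6, 2.04 and 2.3 in E2G7, 0.684 and 0.816 in D2A7 and 0.655 and 0.799 in E2E8, again with D2A7 and E2E8 close to WT (0.515 and 0.648) and a difference of 2.45 (SE 0.13) in the Dnttip1 KO pair and 1.46 (SE 0.13) in the Elmsan1 KO pair. Dusp6, the phosphatase that inactivates ERK, was at 11.3 and 10.7 FPKM in D1E6, 7.82 and 7.8 in E2G7, 4.15 and 4.46 in D2A7 and 4.72 and 4.89 in E2E8, against 5.29 and 4.55 in WT. Its log2 differences were 1.33 and 0.69. Myc, a growth-promoting transcription factor, was low throughout, at 1.91 and 1.85 FPKM in D1E6, 1.66 and 1.6 in E2G7, 0.852 and 1.07 in D2A7 and 0.618 and 0.636 in E2E8, with WT (1.35 and 1.05) between the sides.

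Most other genes of the pathway were not called. Etv5, which was abundant, was at 76.5 and 76.6 FPKM in D1E6, 86.5 and 83.1 in E2G7, 62.4 and 64.8 in D2A7 and 79.6 and 78.6 in E2E8, a log2 difference of 0.27 and 0.10, and was not called. Spry2 had log2 differences of opposite sign short of the threshold (-0.40 and 0.33), with its highest level in D2A7 (43.4 and 43.1 FPKM). Spred1, another inhibitor of the pathway, differed by 0.62 and 0.20, past the threshold in the Dnttip1 KO pair only. Dusp4, a further ERK phosphatase, was called in opposite directions, at 2.3 and 2.2 FPKM in D1E6, 2.01 and 2.16 in E2G7, 0.957 and 1.01 in D2A7 and 4.24 and 4.56 in E2E8, so that E2E8 held the highest and D2A7 the lowest level. Etv5, Spry2, Spred1 and Dusp4 were picked after their values were seen, and the list was written with earlier results of these data known. Spry4, Etv4, Dusp6 and Myc were named because they were called, so their count is no independent support. For Spry4, Etv4 and Dusp6 the log2 difference was larger between the clones of the Dnttip1 KO than between those of the Elmsan1 KO, by 0.70 (SE 0.11) for Spry4, 0.98 (SE 0.18) for Etv4 and 0.64 (SE 0.069) for Dusp6. Such differences of clone effects are built from the contrasts that chose the sides and are given without a test; at an adjusted p under 0.05 in limma, 46.8% of all genes tested would pass.

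Of the 11 core pluripotency genes considered, Lin28a, Utf1 and Dppa2 were called in both pairs in this direction (0.312% of all genes tested were). In the other direction 0 were called, and the median log2 difference was 0.21 against -0.05 over all genes tested. Lin28a, an RNA-binding protein that blocks the maturation of let-7 miRNAs, was at 72.8 and 74.1 FPKM in D1E6, 72.2 and 68.6 in E2G7, 35 and 34.9 in D2A7 and 38 and 35.9 in E2E8, with WT in between (46.1 and 46.9) and log2 differences of 1.07 (SE 0.038) in the Dnttip1 KO pair and 0.93 (SE 0.038) in the Elmsan1 KO pair. Utf1, a chromatin-associated factor of undifferentiated cells, was at 27.1 and 26.2 FPKM in D1E6, 22.1 and 25.1 in E2G7, 16 and 18.2 in D2A7 and 14 and 15.4 in E2E8. Dppa2, which binds promoters of germline and early embryonic genes, was at 13.1 and 14.5 FPKM in D1E6, 13.6 and 13.2 in E2G7, 8.82 and 9.22 in D2A7 and 8.17 and 9.11 in E2E8. The differences of Utf1 (0.64 and 0.68) and Dppa2 (0.61 and 0.63) were close to the threshold of 1.5-fold, and each lost its call in at least 1 alternative. Lin28a also lost its call with a threshold of 2-fold, where 0 of the 11 genes were called.

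Pou5f1, Sox2 and Nanog were not among the called genes. Pou5f1 was at 286 and 268 FPKM in D1E6, 289.8 and 289 in E2G7, 318 and 309 in D2A7 and 243 and 238 in E2E8, so that D2A7 was highest, E2E8 lowest and the sides overlapped. Sox2 (138 and 141 FPKM in D1E6, 138 and 137 in E2G7, 145 and 148 in D2A7 and 132 and 137 in E2E8) differed by -0.071 and 0.038, and Nanog (284 and 291 FPKM in D1E6, 271 and 262 in E2G7, 279 and 275 in D2A7 and 244 and 241 in E2E8) by 0.056 and 0.14. Of 20 naive pluripotency genes, 0 were called in both pairs in either direction (0.312% and 1.73% of all genes tested were), at a median of -0.041. Klf2, a factor downstream of MEK inhibition, showed the same order as Pou5f1, at 113 and 114 FPKM in D2A7, 72.9 and 75.6 in D1E6, 73.9 and 77.8 in E2G7 and 59.5 and 63 in E2E8, and Tfcp2l1 had log2 differences of -0.43 and 0.36. Of 15 primed pluripotency genes, Dnmt3l was called in this direction and Otx2 in opposite directions (0.312% and 1.75% of all genes tested were).

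Further genes of this side covered DNA methylation, BMP signaling, hormones and transport. Dnmt3l, the cofactor of the de novo DNA methyltransferases, was at 29.3 and 28.3 FPKM in D1E6, 16.1 and 15.4 in E2G7, 15.5 and 15.5 in D2A7 and 2.89 and 3.11 in E2E8, against 5.95 and 6.38 in WT. The libraries of the 2 sides overlapped, with D2A7 and E2G7 alike, and the clone effect was larger in the Elmsan1 KO, with a difference of effects of -1.47 (SE 0.062). The mean of the Dnttip1 KO clones was also higher for Dnmt3l (limma, log2 difference Dnttip1 KO minus Elmsan1 KO 1.60, SE 0.031, adjusted p = 1.84e-06). This difference came from D1E6 and E2E8, and its p measures only the spread between libraries of a clone. Id3, an inhibitor of helix-loop-helix factors and a BMP target, was at 11.2 and 9.8 FPKM in D1E6, 8.43 and 9.57 in E2G7, 5.55 and 5.37 in D2A7 and 2.07 and 2.34 in E2E8, lowest in E2E8. The related Id1 was lowest in E2E8 among the KO clones (0.373 and 0.42 FPKM, against 1.32 and 1.33 in D2A7, 1.51 and 1.46 in D1E6 and 1.36 and 1.75 in E2G7). Its level in WT was 0.488 and 0.541 FPKM, near E2E8 and below the other clones. Of the 18 BMP and Nodal response genes considered, 1 was called in this direction (Id3) and 1 in the other (Bmp7). Over all genes tested, the shares were 0.312% and 1.73%.

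Trh, which encodes the precursor of thyrotropin-releasing hormone, was the most abundant of the 55 genes, at 1588 and 1516 FPKM in D1E6, 1255 and 1268 in E2G7, 569 and 624 in D2A7 and 677 and 667 in E2E8, with WT (663 and 649) near D2A7 and E2E8. It lies on chromosome 6, whose median differed by 0.49 in the Dnttip1 KO pair and by -0.095 in the Elmsan1 KO pair, beside 1.38 and 0.91 for Trh itself. Slc39a14, a zinc and manganese transporter, was at 5.38 and 5.57 FPKM in D1E6, 4.57 and 4.4 in E2G7, 1.61 and 1.6 in D2A7 and 2.54 and 2.58 in E2E8, a difference of 1.71 (SE 0.048) in the Dnttip1 KO pair and 0.79 (SE 0.048) in the Elmsan1 KO pair. Kifc3, a minus-end-directed kinesin, was at 13.6 and 13.4 FPKM in D1E6, 11.6 and 12.2 in E2G7, 7.07 and 7.96 in D2A7 and 6.3 and 6.99 in E2E8, above WT (4.94 and 4.56) on both sides. The prolactin receptor Prlr was at 1.81 and 1.79 FPKM in D1E6, 1.83 and 1.78 in E2G7, 0.984 and 0.993 in D2A7 and 1.01 and 0.986 in E2E8, so that the clones of a side were alike. Enox1 (12.7 and 13 FPKM in D1E6, 12.2 and 11.8 in E2G7, 5.97 and 6.63 in D2A7 and 4.09 and 4.19 in E2E8), the interferon-inducible GTPase Irgm1 (1.37 and 1.41 FPKM in D1E6, 1.83 and 1.72 in E2G7, 0.653 and 0.562 in D2A7 and 0.504 and 0.348 in E2E8) and the transcriptional co-repressor Ripply1 (2.65 and 2.62 FPKM in D1E6, 2.96 and 2.79 in E2G7, 1.41 and 1.5 in D2A7 and 1.18 and 1.57 in E2E8) completed the 12 genes with the largest differences on this side. Chosen after their values were seen, Rps6ka6, an X-linked kinase of the ribosomal S6 kinase family, differed by 0.66 and 1.14, and Rab27a, a GTPase of vesicle transport, by 1.13 and 0.65.

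**Figure D3:**
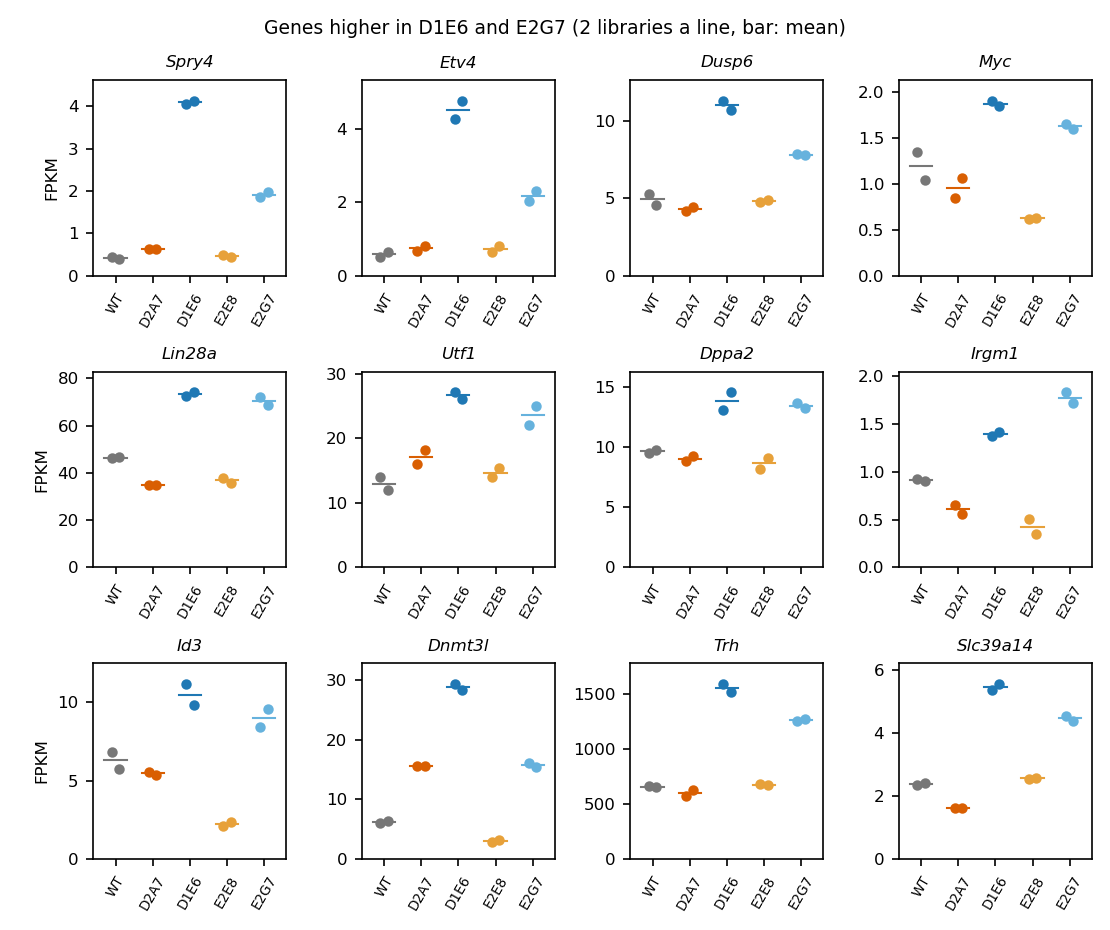
FPKM (y axis, from 0) of 12 genes called higher in D1E6 and E2G7, for WT and the 4 KO clones (x axis), with each library as a point and the mean of 2 libraries as a bar. Spry4 and Etv4 in D2A7 and E2E8 lie near WT, whereas Dnmt3l in D2A7 lies at the level of E2G7.

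On the side of D2A7 and E2E8, the leading genes included a transporter, a growth factor and cell-surface proteins. Slc38a4 (ENSMUSG00000022464, chromosome 15 from 96825254 to 96886387), an imprinted neutral amino acid transporter, reached 1.34 and 2.05 FPKM in D1E6, 2.24 and 1.89 in E2G7, 10.9 and 10.6 in D2A7 and 7.5 and 7.35 in E2E8, with WT at 11.3 and 10.9. D1E6 and E2G7 held less of the transcript than every other line, with log2 differences of -2.62 (SE 0.18) in the Dnttip1 KO pair and -1.80 (SE 0.18) in the Elmsan1 KO pair. Vegfa (ENSMUSG00000023951, chromosome 17 from 46153942 to 46169326), the growth factor of blood vessels and a hypoxia target, went the other way relative to WT. It was at 2.42 and 2.45 FPKM in D1E6, 2 and 1.83 in E2G7, 6.75 and 7.35 in D2A7 and 5.06 and 5.64 in E2E8, against 2.91 and 2.93 in WT, so that D2A7 and E2E8 were the lines that stood apart (-1.49 (SE 0.075) in the Dnttip1 KO pair and -1.43 (SE 0.075) in the Elmsan1 KO pair). Most other hypoxia and glycolysis genes were not called: of 33, Vegfa and Eno2 were called in both pairs (1.73% of all genes tested were). The median log2 difference was -0.039, against -0.05 over all genes tested. App, the amyloid precursor protein, was at 6.58 and 6.14 FPKM in D1E6, 5 and 5.42 in E2G7, 20.0 and 20.3 in D2A7 and 11 and 11.8 in E2E8, with WT (10.7 and 9.35) in between. Sdc3, a heparan sulfate proteoglycan, was at 0.878 and 0.809 FPKM in D1E6, 0.517 and 0.473 in E2G7, 2.84 and 2.88 in D2A7 and 1.21 and 1.46 in E2E8. Its level in WT was 1.36 and 1.42 FPKM, close to E2E8.

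Mbnl2, a regulator of alternative splicing, was at 2.06 and 2.26 FPKM in D1E6, 2.04 and 2.15 in E2G7, 5.15 and 5.16 in D2A7 and 4.62 and 5.31 in E2E8, a difference of -1.22 (SE 0.079) in the Dnttip1 KO pair and -1.20 (SE 0.079) in the Elmsan1 KO pair. Capn2, a calcium-dependent protease, was at 3.2 and 3.34 FPKM in D1E6, 2.47 and 2.78 in E2G7, 7.27 and 7.46 in D2A7 and 6.33 and 6.99 in E2E8, with WT (4.19 and 3.9) between the sides. The remaining leading genes were the non-coding or little-known 4930500J02Rik (4.43 and 4.86 FPKM in D1E6, 4.26 and 3.99 in E2G7, 14.9 and 14.9 in D2A7 and 9.24 and 9.15 in E2E8), Gm11427 (0.499 and 0.462 FPKM in D1E6, 0.401 and 0.531 in E2G7, 1.94 and 1.89 in D2A7 and 1.37 and 1.32 in E2E8), Gm17335 (-1.13 and -1.30) and Gm17657 (-1.73 and -1.31). Gm17657 rested on as few as 17 fragments in a library, the lowest of the 24 leading genes.

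Chosen after their values were seen, the more abundant genes of this side included several of metabolism. Aqp3, a water and glycerol channel, was at 50.6 and 48.4 FPKM in D1E6, 41.8 and 44.7 in E2G7, 95.6 and 96.2 in D2A7 and 75.1 and 76.5 in E2E8, with WT (46.6 and 44.6) at the level of D1E6 and E2G7. Gldc, the glycine decarboxylase, was at 25.5 and 25.1 FPKM in D1E6, 26.6 and 27.6 in E2G7, 57.8 and 58.4 in D2A7 and 49.8 and 51.1 in E2E8, and here WT (54.6 and 53.8) was at the level of D2A7. Cpt1a, which moves fatty acids into mitochondria, was at 22.7 and 22.8 FPKM in D1E6, 23.8 and 22.7 in E2G7, 37.8 and 37.4 in D2A7 and 37 and 36.9 in E2E8. The insulin-like growth factor binding protein Igfbp2 was at 53.1 and 53 FPKM in D1E6, 53.7 and 56.8 in E2G7, 101 and 98.8 in D2A7 and 81.5 and 88.3 in E2E8, below WT (131 and 115) in all 4 clones. The calcium-binding protein S100a13 was at 48.1 and 53.6 FPKM in D1E6, 39.7 and 39.8 in E2G7, 91.3 and 91.5 in D2A7 and 75.2 and 79.3 in E2E8.

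Lysosomal genes were noticed among the called genes and listed afterwards, so their counts are no independent support. Of 54 genes of this list that were tested, 8 were called in both pairs with higher levels in D2A7 and E2E8 (1.73% of all genes tested were), 0 in the other direction and 1 in opposite directions. The 4 libraries of D1E6 and E2G7 lay below all 4 of D2A7 and E2E8 for 38 of the 54 genes (against 14% of all genes tested), and above for 0. Their median log2 differences were -0.33 in the Dnttip1 KO pair and -0.49 in the Elmsan1 KO pair. Gaa, the acid glucosidase that degrades glycogen, was at 19 and 18.4 FPKM in D1E6, 16.5 and 17.3 in E2G7, 29.5 and 31.3 in D2A7 and 33.9 and 36.5 in E2E8, against 25.1 and 22.8 in WT. Laptm4b, a lysosomal membrane protein, was at 15.8 and 15.8 FPKM in D1E6, 16.1 and 16.6 in E2G7, 33.8 and 31.8 in D2A7 and 28.5 and 28.3 in E2E8, with WT (36 and 37.5) above both sides. Gpnmb, a glycoprotein of lysosomes and melanosomes, was at 13.1 and 12.9 FPKM in D1E6, 8.02 and 8.56 in E2G7, 20.2 and 19.4 in D2A7 and 21.9 and 23.1 in E2E8, a difference that was larger in the Elmsan1 KO pair (-0.61 and -1.43). Gpnmb lies on chromosome 6, whose median differed by 0.49 in the Dnttip1 KO pair and by -0.095 in the Elmsan1 KO pair. Gm2a, the activator of ganglioside breakdown, differed by -0.64 and -0.62, the lysosomal glycoprotein Cd68 by -0.90 and -0.65, the glucuronidase Gusb by -0.62 and -0.66, Creg1 by -0.69 and -0.65 and the phosphatase Acp5 by -0.93 and -0.60. In the Dnttip1 KO pair, 2 genes of the list were called higher in D1E6. The gene called in opposite directions was Lipa, the acid lipase, at 1.07 and 1.19 FPKM in D1E6, 1.25 and 1.15 in E2G7, 0.395 and 0.417 in D2A7 and 4.47 and 4.38 in E2E8, with D2A7 lowest and E2E8 at the level of WT (3.68 and 3.48).

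Transcription factors of the MiT/TFE family drive lysosomal genes, and folliculin restrains TFE3 in mESCs. A list of such genes was added later, and those named here were chosen after their values were seen. Of 9 genes tested, 0 were called in both pairs, where 0.312% and 1.73% of all genes tested were. Tfeb RNA was at 9.43 and 8.56 FPKM in D1E6, 8.65 and 8.97 in E2G7, 6.32 and 7.2 in D2A7 and 6.64 and 7.34 in E2E8, a log2 difference of 0.41 and 0.33 that missed the threshold. Tfe3 differed by 0.18 and 0.36, Mitf by 0.12 and 0.15 and Flcn by -0.057 and 0.26. Of the same list, Rragd differed by -0.34 and 0.18 and Fnip2 by -0.19 and -0.41. The 4 libraries of D1E6 and E2G7 lay above all 4 of D2A7 and E2E8 for 4 of the 9 genes and below for 2. RNA levels do not show where these factors were in the cell.

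Imprinted, germline and stress genes were called on this side in small numbers. Of 35 imprinted genes tested, Slc38a4, Grb10 and Phlda2 were called in both pairs (1.73% of all genes tested were). In the other direction 0 were called, and Dio3 and Sgce were called in opposite directions. Grb10, an adaptor that dampens insulin signaling, was at 2.36 and 2.29 FPKM in D1E6, 3.13 and 3.24 in E2G7, 5.3 and 5.27 in D2A7 and 5.36 and 5.56 in E2E8, below WT (7.87 and 7.61) in every clone. Phlda2, which restrains placental growth, was at 15.1 and 15 FPKM in D1E6, 12.9 and 14.5 in E2G7, 23.9 and 24.3 in D2A7 and 22.4 and 23.1 in E2E8, above WT (9.42 and 9.32) in every clone. The 3 called imprinted genes thus had no common relation to WT. Of 27 germline genes, 3 that act in meiotic chromosomes were called (Rec8, Smc1b and Sycp3), beside the share of 1.73%. The median was -0.29, against -0.05 over all genes tested. The meiotic cohesin Rec8 was at 3.33 and 3.25 FPKM in D1E6, 3.11 and 3.61 in E2G7, 5.57 and 5.48 in D2A7 and 6.94 and 6.73 in E2E8, with WT at 5.93 and 6.3. Smc1b and Sycp3 differed by -1.10 and -0.97 and -0.73 and -0.99.

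In the list of the amino acid and integrated stress response, 2 of 30 genes were called (Atf3 and Cebpb), against 1.73% of all genes tested. A further 1 gene (Cth) was called in opposite directions, and the median was -0.27 against -0.05 over all genes tested. Atf3, a stress-induced transcription factor, was at 1.09 and 1.32 FPKM in D1E6, 1.39 and 1.34 in E2G7, 2.72 and 2.52 in D2A7 and 3.96 and 4.12 in E2E8, against 0.739 and 1.15 in WT. Within the single pairs, 13 of the 30 genes were higher in E2E8 than in E2G7 (9.85% of all genes were), and 5 were higher in D2A7 than in D1E6, nearer to the share over all genes (9.8%). Bmp7, a BMP ligand, was at 1.75 and 1.54 FPKM in D1E6, 1.74 and 1.89 in E2G7, 2.81 and 2.59 in D2A7 and 3.79 and 4.17 in E2E8, highest in E2E8. The matrix protease Mmp2 differed by -1.14 and -1.51, the MHC class I gene H2-K1 by -0.61 and -0.89, the keratin Krt7 by -1.04 and -0.88, the enolase Eno2 by -0.68 and -1.03, the testis-type linker histone Hist1h1t by -0.80 and -0.92 and the sulfate transporter Slc26a11 by -0.76 and -1.11.

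**Figure D4:**
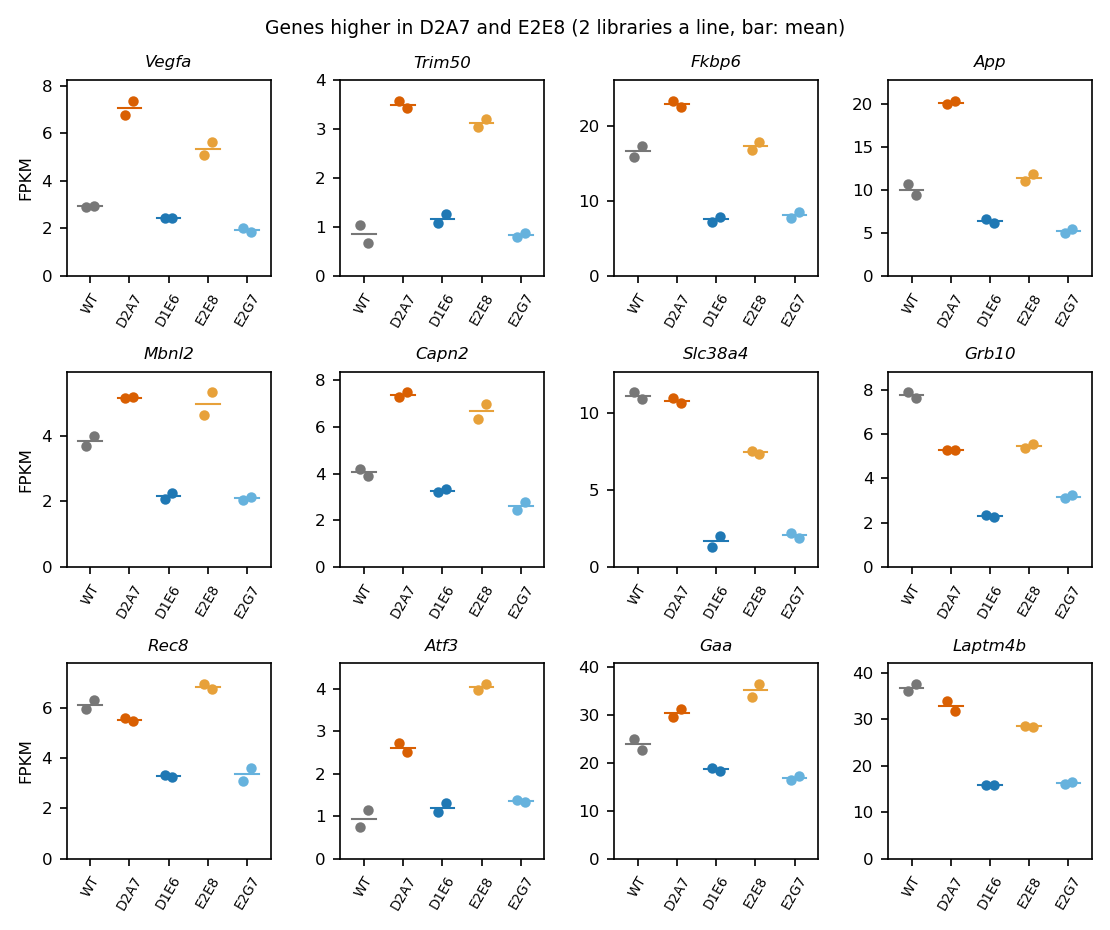
FPKM (y axis, from 0) of 12 genes called higher in D2A7 and E2E8, for WT and the 4 KO clones (x axis), with each library as a point and the mean of 2 libraries as a bar. WT lies near D1E6 and E2G7 for Vegfa and Trim50 and near D2A7 for Slc38a4, and App and Gaa fall in between.

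Several genes called higher in D2A7 and E2E8 were neighbours: 20 pairs of consecutive called genes lay within 50000 bases of each other. All 20 were on this side, which held 305 of the 360 genes called in the same direction. How often other tested genes lie this close was not counted, and some pairs are overlapping annotations or related copies. Fkbp6 and Trim50 on chromosome 5 are read away from each other with 3269 bases between their starts. Fkbp6 (chromosome 5 from 135767574 to 135825895), which is needed in meiosis and for piRNAs, was at 7.13 and 7.91 FPKM in D1E6, 7.71 and 8.52 in E2G7, 23.3 and 22.5 in D2A7 and 16.8 and 17.9 in E2E8, with WT at 15.9 and 17.3. Trim50 (chromosome 5 from 135829165 to 135843875), a ubiquitin ligase, was at 1.07 and 1.27 FPKM in D1E6, 0.791 and 0.877 in E2G7, 3.58 and 3.43 in D2A7 and 3.04 and 3.2 in E2E8, with WT at 1.03 and 0.68. The next gene beyond Fkbp6 that was called, Fzd9, a WNT receptor, differed by -0.68 and -0.89. Both genes thus held the same order of the sides, with WT on different sides. The 250 bases upstream of each start in NCBIM37 are shown in the direction of the gene, with CpG dinucleotides in capitals, since the pair differs in CpG content, and Etv4 is shown as a gene of the other side. The windows are chr5:135825896-135826145 on the − strand (Fkbp6, 19 CpG), chr5:135828915-135829164 on the + strand (Trim50, 4 CpG) and chr11:101646686-101646935 on the − strand (Etv4, 9 CpG).
Fkbp6 upstream bases: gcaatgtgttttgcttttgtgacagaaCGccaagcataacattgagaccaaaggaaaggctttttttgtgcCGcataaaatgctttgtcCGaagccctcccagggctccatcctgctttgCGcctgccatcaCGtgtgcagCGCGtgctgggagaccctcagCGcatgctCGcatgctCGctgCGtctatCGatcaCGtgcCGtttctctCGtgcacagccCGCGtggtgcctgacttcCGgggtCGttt
Trim50 upstream bases: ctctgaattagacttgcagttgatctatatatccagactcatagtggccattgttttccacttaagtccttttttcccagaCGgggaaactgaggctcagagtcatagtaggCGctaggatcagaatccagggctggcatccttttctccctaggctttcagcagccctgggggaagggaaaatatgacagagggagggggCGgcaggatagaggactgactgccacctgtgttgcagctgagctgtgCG
Etv4 upstream bases: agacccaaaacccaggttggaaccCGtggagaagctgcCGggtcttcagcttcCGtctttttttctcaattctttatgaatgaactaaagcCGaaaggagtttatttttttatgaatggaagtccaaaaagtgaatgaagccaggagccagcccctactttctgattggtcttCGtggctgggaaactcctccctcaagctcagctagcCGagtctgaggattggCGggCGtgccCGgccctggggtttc
Over the 13973 protein-coding genes with such a window, the median was 14 CpG, against 13.5 over 52 genes higher in D1E6 and E2G7 and 9 over 263 genes higher in D2A7 and E2E8. The ETS core motif CCGGAA, which contains a CpG, occurred on either strand in 19.6% of all windows, in 9.62% of those of the 52 genes and in 10.3% of those of the 263 genes. These shares describe the windows and were not tested.

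Other neighbours were Gaa, Card14 and Slc26a11 on chromosome 11, which are read from the same strand. Card14 was low, at 0.246 and 0.237 FPKM in D1E6, 0.205 and 0.208 in E2G7, 0.482 and 0.562 in D2A7 and 0.385 and 0.426 in E2E8, and differed by -0.86 and -0.72. Prnp, the prion protein gene, differed by -1.65 and -1.51, and Prnd beside it by -0.82 and -1.25. Their annotated spans overlap, so fragments between them cannot be assigned with certainty. A group of X-linked lymphocyte-regulated genes, Xlr3a, Xlr3b, Xlr4a, Xlr4b and Xlr4c, were all called on this side. Xlr3a was at 0.479 and 0.567 FPKM in D1E6, 0.541 and 0.497 in E2G7, 0.938 and 0.766 in D2A7 and 1.76 and 1.86 in E2E8, against 3.4 and 3.34 in WT. These are near-identical copies among which fragments may be split, so the level of each is uncertain.

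The genes that went in opposite directions, 308 in all, are where the sides broke up. For 285 of them D1E6 and E2G7 were within 1.5-fold of each other. This is no special trait, since only 1.09% of genes that averaged 1 FPKM or more were at least 1.5-fold apart between these clones. For 301 both lay between D2A7 and E2E8, a position that the opposite calls and the closeness of D1E6 and E2G7 largely fixed. Higher in D2A7 and E2G7 were 185 (1.05% of genes tested), and 123 (0.699%) were higher in D1E6 and E2E8. By size of the difference between the 2 clone effects, the leading 3 were Ddx3y, Gm12617 and Eif2s3y. The Y-linked helicase gene Ddx3y was at 18.9 and 18.3 FPKM in D2A7, 11.5 and 11.6 in D1E6 and 8.45 and 8.31 in E2G7, and 0.00283 and 0 in E2E8. Eif2s3y had the same order, at 13.2 and 13.1 FPKM in D2A7, 6.31 and 7.04 in D1E6, 3.22 and 3.24 in E2G7 and 0.00315 and 0 in E2E8. Gm12617, a little-known gene, was at 1.9 and 2.41 FPKM in D1E6, 1.34 and 1.37 in E2G7, 13 and 12.5 in D2A7 and 0 and 0.0388 in E2E8.

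Chosen after their values were seen, Otx2, a homeobox factor of the early epiblast, showed the pattern most plainly, at 2.92 and 2.89 FPKM in D1E6, 3.04 and 2.9 in E2G7, 11.4 and 10.5 in D2A7 and 0.738 and 0.765 in E2E8. D2A7 was at the level of WT (11.2 and 11), D1E6 and E2G7 were alike at a lower level, and E2E8 was lowest. Spic, an ETS family factor, was at 3.79 and 4.1 FPKM in D1E6, 4.59 and 4.21 in E2G7, 17.4 and 17.5 in D2A7 and 1.77 and 1.91 in E2E8, and Dio3, an imprinted deiodinase of thyroid hormone, at 1.57 and 1.93 FPKM in D1E6, 1.92 and 2 in E2G7, 6.32 and 7.16 in D2A7 and 0.116 and 0.269 in E2E8. Pramel6 was at 14.1 and 13 FPKM in D2A7 and at most 1.47 FPKM in any other KO library, and Pramel7 at 5.47 and 5.03 FPKM in D2A7 and at most 0.89 FPKM in the other KO libraries. Tet2, an enzyme that oxidizes methylated cytosine, was at 12.6 and 13 FPKM in D1E6, 11.1 and 11.2 in E2G7, 20.8 and 21.5 in D2A7 and 5.57 and 5.56 in E2E8. In the other direction, Bst2, an interferon-inducible surface protein, was at 152 and 139 FPKM in D1E6, 129 and 133 in E2G7, 71 and 76 in D2A7 and 254 and 245 in E2E8, with WT (60.8 and 55.5) lowest.

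**Figure D5:**
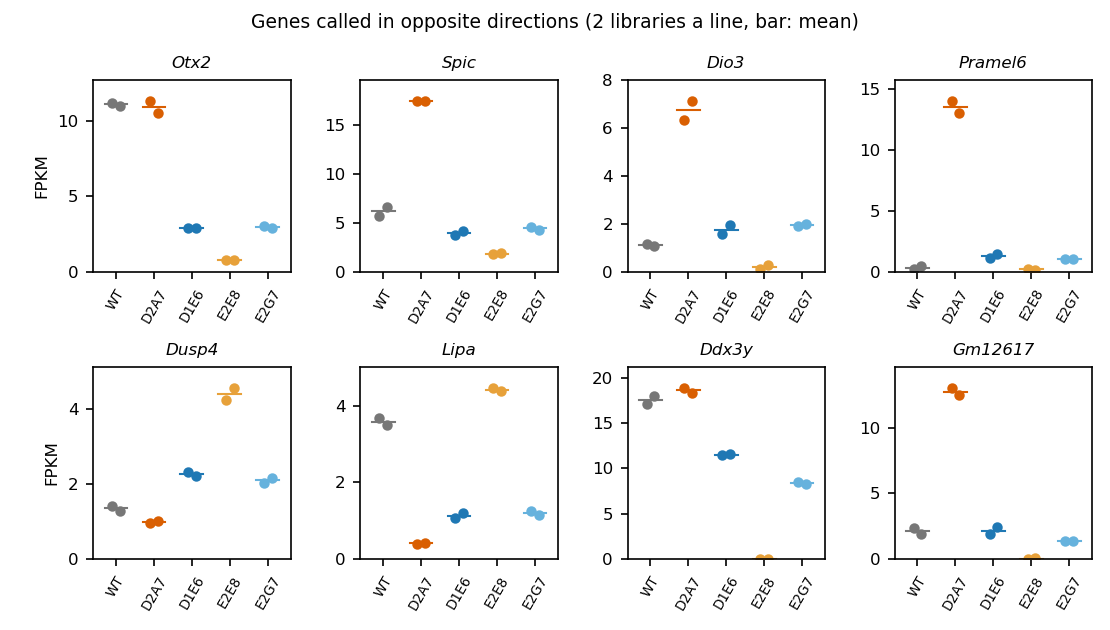
FPKM (y axis, from 0) of 8 genes called in opposite directions in the 2 clone pairs, for WT and the 4 KO clones (x axis), with each library as a point and the mean of 2 libraries as a bar. D1E6 and E2G7 lie between D2A7 and E2E8 in each panel, and Ddx3y in E2E8 is at 0.00283 FPKM or less.

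WT cells, which took no part in the comparison, did not side as a whole with either pair of clones. Of the 55 genes higher in D1E6 and E2G7, the WT mean was nearer to D2A7 and E2E8 for 32 and nearer to D1E6 and E2G7 for 23. Of the 305 genes higher in D2A7 and E2E8, it was nearer to D1E6 and E2G7 for 179 and nearer to D2A7 and E2E8 for 126. In both sets WT was thus more often nearer to the side with the lower level. WT lay beyond the range of the sides for 22 of the 55 and 136 of the 305. The WT libraries were shallower than those of the KO clones, at 31.1e6 and 37.9e6 fragments. They differed by a median SD of 0.049, against 0.034 to 0.044 within KO clones, which limits comparisons with WT.

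The knockout difference was also fitted beside the sides, where the rule used the knocked-out gene as a covariate. As D1E6 and E2G7 lay close to each other, this difference rested largely on D2A7 against E2E8. Dnttip1 KO and Elmsan1 KO clones differed at an adjusted p under 0.05 in limma for 22 of the 55 genes and for 132 of the 305, where 45% of all genes tested did. These tests measure only the spread between libraries of a clone, so they do not separate an effect of the knocked-out gene from that of single clones. Genes whose knockout difference passed included App (log2 difference Dnttip1 KO minus Elmsan1 KO 0.55, SE 0.04, adjusted p = 0.000101), Sdc3 (log2 difference Dnttip1 KO minus Elmsan1 KO 0.86, SE 0.074, adjusted p = 0.000208) and Id3 (log2 difference Dnttip1 KO minus Elmsan1 KO 0.75, SE 0.065, adjusted p = 0.000212). Lin28a (log2 difference Dnttip1 KO minus Elmsan1 KO -0.0091, SE 0.027, adjusted p = 0.813), Prlr (log2 difference Dnttip1 KO minus Elmsan1 KO -0.0061, SE 0.047, adjusted p = 0.929) and Mbnl2 (log2 difference Dnttip1 KO minus Elmsan1 KO 0.05, SE 0.056, adjusted p = 0.505) did not pass.

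The called genes were expressed at low levels, with a median of 1.9 FPKM for the 55 and 0.982 FPKM for the 305, against 4.24 FPKM over all genes tested. Of those annotated, 52 of 54 and 263 of 303 were protein-coding (96.3% and 86.8%, against 80.7% of all). Median exon lengths were 3179 and 2587 bases, against 2833. Among annotated genes, the 305 came from all autosomes and the X chromosome, and the 55 from the same chromosomes except chromosome 17. Of 803 genes tested on chromosome 6, 4 (0.498%) and 5 (0.623%) were called in the 2 directions. Of 703 on X, 4 (0.569%) and 16 (2.28%) were, against 0.312% and 1.73% over all genes tested. Lists without a gene called in the same direction in both pairs included the cell cycle (36 genes tested), p53 targets (24), cholesterol and fatty acid synthesis (30), the unfolded protein response and heat shock (24), the NRF2 response (23), cytosolic ribosomal proteins (77) and mitochondrially encoded genes (15). For axon guidance ligands and receptors, 0 of 23 were called in the same direction, and for WNT response genes 0 of 17. Over all genes tested, 0.312% and 1.73% were called in the 2 directions. At these shares, lists of this size would hold few or no called genes, so the counts do not set these lists apart. Of 16 DNA methylation genes Dnmt3l was called, and of 220 solute carriers 1 was higher in D1E6 and E2G7 and 4 were higher in D2A7 and E2E8, near the shares over all genes (0.312% and 1.73%).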

How the data were processed

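Stranded total RNA was sequenced from both ends in 10 libraries. The authors aligned reads to NCBIM37 (the StrongArm pipeline), counted them per gene with HTSeq and deposited FPKM values; the submitters' processing notes name edgeR 3.16.5, limma and R 3.3.1. The methods name GENCODE vM20, but 97.2% of the 34591 genes matched GENCODE vM1, which gave positions and lengths. Low FPKM values times exon length were whole multiples of a step for 98.3% to 98.6% of values under 100 steps, which gave the depth. FPKM were divided by median-ratio factors (0.965 to 1.01). A gene was fitted if 2 or more of the 8 libraries reached 0.1 FPKM, as log2(FPKM + 0.1), on which all log2 differences are given, with limma 3.58.1 (R 4.3.3; a mean per clone, variance trend, Benjamini-Hochberg adjustment over all genes, two-sided tests). This scale understates changes of low genes. Calls follow the authors' rule (1.5-fold, unadjusted p under 0.01). The study calls the libraries of a line biological replicates; separate cultures are not stated in the sources used here, and p-values measure only the spread between these libraries. The fits were tested on simulated data. Tables and figures used Python 3.11.15, pandas 2.3.3 and matplotlib 3.10.9.

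The clone sides and the gene lists were chosen with earlier results of these data known. Some genes of the lists are not reported here and are left out of the lists' counts and medians. Named genes are, in each direction, the 12 with the largest smaller difference of both pairs among genes called in both, an average of 1 FPKM or more and sides that do not overlap; up to 5 called genes per list with at least 1 FPKM on a side; Dnttip1, Elmsan1, Pou5f1, Sox2 and Nanog; and the 3 opposite genes with the largest difference of effects. Alternatives were other pseudocounts, filters, scalings, thresholds and fits, each library left out in turn, and, chosen after seeing the data, voom on recovered fragments, centred chromosome medians, and leaving out chromosomes 6 and Y.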

Additional observations from a re-analysis of the deposited data

Results flagged for a closer look

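For several named genes the effect of the clone differed between the knockouts (adjusted p under 0.05 in limma for the difference of the 2 effects, D1E6 minus D2A7 less E2G7 minus E2E8, on the log2 scale). This difference is built from the clone contrasts that chose the sides, so the threshold, which 46.8% of all genes tested pass, serves only to list genes, and the values are a description without a test. Among genes higher in D1E6 and E2G7, the difference of effects was 0.70 for Spry4, 0.98 for Etv4, 0.64 for Dusp6, 0.47 for Trh and 0.92 for Slc39a14, all larger in the Dnttip1 KO pair. Trh lies on chromosome 6, whose median differed by 0.49 in the Dnttip1 KO pair and by -0.095 in the Elmsan1 KO pair. These medians are farther apart than the effects on Trh. The difference of effects was -0.77 for Irgm1, -0.50 for Enox1, -1.06 for Id3 and -1.47 for Dnmt3l, all larger in the Elmsan1 KO pair. Among genes higher in D2A7 and E2E8, it was -0.82 for Slc38a4, -0.52 for 4930500J02Rik, -0.53 for App, -0.51 for Fkbp6 and -0.40 for Grb10, larger in the Dnttip1 KO pair. It was 0.40 for Bmp7, 0.43 for Atf3 and 0.35 for Slc26a11, larger in the Elmsan1 KO pair. For Dnttip1 it was -1.02, as the RNA was lower in D1E6 than in D2A7, and for Pou5f1 it was -0.45, with D2A7 highest and E2E8 lowest. Ddx3y (-7.08), Eif2s3y (-6.01) and Gm12617 (-6.15) were named for the size of this difference; with values of at most 0.0388 FPKM in E2E8, their size depends on the pseudocount. No library of a side stood far from its other 3 for any named gene, although 2 libraries of the same clone can hide this.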

How the results depend on the processing

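The direction of all 44 called genes named by rule held under each of the 23 alternatives in which the gene was tested, and 17 kept their call under each of these; most calls were lost with a threshold of 2-fold (25 genes) or a pseudocount of 1 (13). Counts moved by over 1.5 times as follows, in the order same direction higher in D1E6 and E2G7, same direction higher in D2A7 and E2E8, opposite directions. With a pseudocount of 1 they were 18, 59 and 86, and the pairs gave 313 (D1E6 higher), 729 (D2A7), 227 (E2G7) and 604 (E2E8). With a threshold of 2-fold they were 6, 41 and 68, with 124, 779, 189 and 504 in the pairs. With only genes of at least 1 FPKM, 153 were higher in D2A7 and E2E8 and 187 were opposite, with 813 (D2A7), 353 (E2G7) and 901 (E2E8). With quantile normalization 114 and 123 were called in the same direction, with 1126 (D1E6) and 1038 (E2E8) in the pairs; the causes were not tested. Voom on recovered fragments called 76, 414 and 398. Pearson's r across genes was -0.035 and -0.078 with pseudocounts of 1 and 0.01, -0.11 with quantile normalization and -0.082 with voom. In the mean of both pairs, 192 genes were higher in D1E6 and E2G7 and 1164 in D2A7 and E2E8, 78 and 345 with an additive fit and an estimated correlation within clones of 0.75.

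Leaving out each library in turn, with the lone library of a clone assumed to vary like the others, gave 47 to 56 genes higher in D1E6 and E2G7, 237 to 292 higher in D2A7 and E2E8, 274 to 305 opposite, 635 to 729 (D1E6), 1365 to 1650 (D2A7), 478 to 547 (E2G7) and 1357 to 1739 (E2E8) in the pairs, and an r of -0.067 to -0.051. Replicate numbers did not pair the samples: deviations of same-numbered libraries correlated at -0.12 to 0.23 between clones, and with a replicate block 55 and 294 genes were called in the same direction, with no named call lost. Depth limits low genes, and no alternative can add a clone to a side.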
